A study of Homo sapiens with 6 samples.

Results

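The 10 genes described here encode transcription factors of the activator protein 1 (AP-1) group and products of immediate early genes: JUN, JUNB and JUND of the Jun family, FOS, FOSL1 and FOSL2 of the Fos family, ATF3, the zinc finger factor EGR1, and IER2 and IER3. They were taken by name from the 61541 genes counted in each library, and all 10 were found. Their RNA was measured in RCC4, an established human cell line derived from clear cell kidney cancer, by sequencing native poly(A) RNA molecules through nanopores. Untreated RCC4 cells (3 libraries) were compared with RCC4 cells kept for 24 h in interferon gamma (IFNγ, 1000 U/mL) plus tumour necrosis factor (TNF, 25 ng/mL; 3 libraries). The sample labels name no vehicle, but the alignment names in the headers of all 6 files, untreated and treated, carry the word dmso. Whether the cells received this solvent is not given in the sources used here. All data come from 1 cell line, and each biological replicate combined 3 flasks. The cytokines were given together and cells were taken at 1 time, so neither agent alone and no earlier time can be read from these data.

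AP-1 is a dimer of basic leucine zipper (bZIP) proteins. Jun proteins pair with each other or with Fos, ATF, BATF and Maf relatives, whereas Fos proteins need a partner to bind DNA. TNF reaches AP-1 through MAP kinases, which phosphorylate Jun and ATF proteins and switch on transcription of their genes. Immediate early genes are transcribed within minutes of a stimulus without new protein synthesis, and for FOS and EGR1 the RNA is short-lived.

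RefSeq promoters (GRCh38.p14, 250 bases before to 50 after the transcription start) were at hand for 8 of the 10 genes. The stretches before the start are shown for the 2 genes that rose with treatment (ATF3 and JUNB), for the other Jun genes, and for EGR1, whose RNA stayed at the detection limit. They are written 5′ to 3′ on the strand of the gene and leave out bases that the deposited annotation counts as exon. Capitals mark matches to any of 6 motifs searched on both strands.
ATF3, chr1:212565157-212565333, plus strand: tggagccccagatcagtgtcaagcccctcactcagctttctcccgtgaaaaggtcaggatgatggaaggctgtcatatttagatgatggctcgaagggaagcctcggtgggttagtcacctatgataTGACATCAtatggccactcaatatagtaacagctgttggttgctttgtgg
JUNB, chr19:12791236-12791485, plus strand: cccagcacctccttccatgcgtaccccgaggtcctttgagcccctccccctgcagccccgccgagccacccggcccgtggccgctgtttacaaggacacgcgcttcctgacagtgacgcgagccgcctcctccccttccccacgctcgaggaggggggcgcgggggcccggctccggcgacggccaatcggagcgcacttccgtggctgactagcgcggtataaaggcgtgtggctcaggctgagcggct
JUN, chr1:58784049-58784297, minus strand: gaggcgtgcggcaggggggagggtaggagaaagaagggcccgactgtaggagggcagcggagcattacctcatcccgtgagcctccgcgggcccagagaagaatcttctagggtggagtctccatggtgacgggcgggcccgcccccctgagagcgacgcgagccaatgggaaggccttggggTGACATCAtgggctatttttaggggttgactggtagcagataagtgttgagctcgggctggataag
JUND, chr19:18281623-18281872, minus strand: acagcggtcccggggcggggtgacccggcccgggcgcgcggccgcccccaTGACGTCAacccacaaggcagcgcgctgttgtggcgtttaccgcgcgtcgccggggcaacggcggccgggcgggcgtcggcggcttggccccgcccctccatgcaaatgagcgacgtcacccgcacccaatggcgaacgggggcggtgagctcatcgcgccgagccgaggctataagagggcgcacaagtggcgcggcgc
EGR1, chr5:138465229-138465478, plus strand: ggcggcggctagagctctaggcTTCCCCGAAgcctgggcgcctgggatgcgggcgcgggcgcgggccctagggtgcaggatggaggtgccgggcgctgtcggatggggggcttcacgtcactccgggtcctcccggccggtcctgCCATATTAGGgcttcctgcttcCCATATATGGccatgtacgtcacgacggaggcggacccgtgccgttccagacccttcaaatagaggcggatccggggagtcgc

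The octamer TGACNTCA, to which ATF and Jun proteins bind in its common forms, was found once each in ATF3 (TGACATCA, bases -123 to -116 from the start), JUN (TGACATCA, -67 to -60) and JUND (TGACGTCA, -200 to -193). It occurs in 7.72% of the 35116 RefSeq promoters of this length. The EGR1 stretch held 2 CArG boxes, the element bound by serum response factor, at -105 to -96 and -83 to -74, and 1 match to TTCNNNGAA, the form of the gamma-activated site, at -228 to -220. CArG boxes occur in 1.29% of all promoters and TTCNNNGAA in 7.66%. The heptamer TGANTCA, the classical AP-1 site, is in 7.71% of promoters and among these genes only in FOSL2 after its start (bases 5 to 11). None of the 6 motifs, including the core of the interferon-stimulated response element (3.57% of promoters) and the kappaB consensus (5.91%), matched in the promoters of JUNB, FOS or IER2 or in a second listed promoter of ATF3. No 2 matches overlapped. A match describes the letters in this window and does not show that a factor binds there.

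Across the set, JUNB and ATF3 rose and no gene fell. FOS and EGR1 were at or under 3 counts in every library, the level below which a count of 0 cannot be told from a low one. The other 8 passed the low-count filter, and of these 2 (JUNB and ATF3) were called higher by edgeR's quasi-likelihood test at an adjusted p under 0.05. Among the 10067 genes tested, 8.14% were called, 5.58% as higher. None was called lower (background 2.55%), and none had a lower level at an unadjusted p under 0.05 or in DESeq2 or limma voom. All 8 had a positive log2 fold change, with a median of 0.68 against -0.03 for all genes tested. The groups did not overlap for 5 of the 8, all with the treated libraries on top and 0 with them below; of all tested genes 25.9% had groups without overlap, 13.9% with treated on top and 12% below. In RNA from whole cultures, more cells making a transcript and more of it per cell cannot be told apart.

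**Figure D1:**
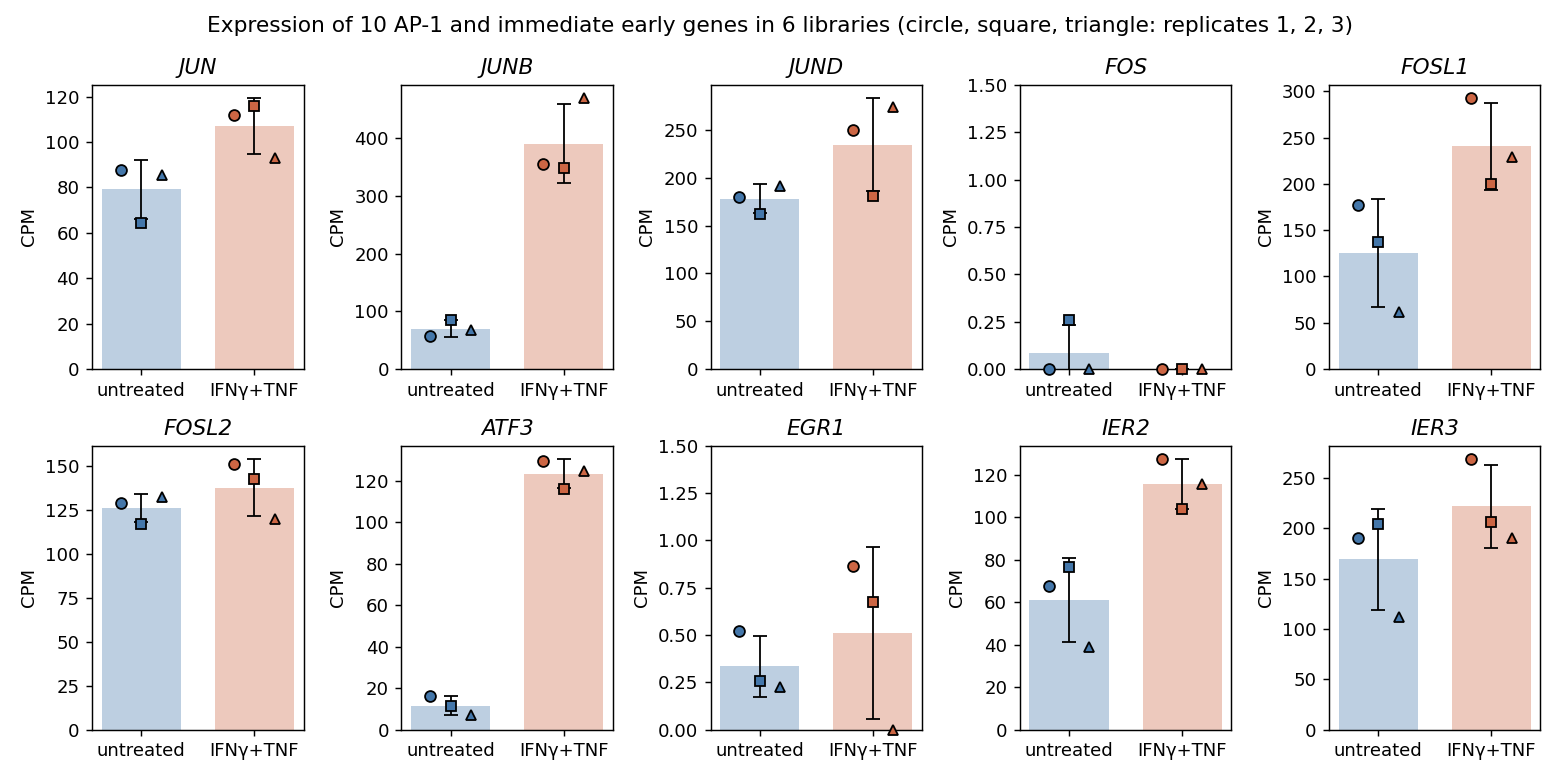
CPM (vertical axis, starting at 0) of the 10 genes in untreated (blue) and IFNγ+TNF-treated (orange) cells; bars are group means, lines ±1 SD over 3 libraries, and symbols single libraries. JUNB (348 to 469 CPM treated against 56.5 to 85.2 untreated) and ATF3 (116 to 130 against 7.03 to 16.4) are the genes whose groups lie farthest apart, while FOS and EGR1 stay under 1 CPM.

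Totals ran from 3626000 to 4406296 counts per library, so 3 counts correspond to 0.674 to 0.862 CPM (counts scaled to a common library total after TMM normalisation). The renal markers PAX8, KRT8, KRT18, VIM and CA9 were present in all libraries, and 10 of the 11 renal and clear cell carcinoma markers were above the limit, LRP2 being at 0. The summed level of this list, most of it from VIM, was 6471 to 8009 CPM in untreated and 8627 to 11780 CPM in treated libraries. Of its 10 tested genes 3 had a positive log2 fold change (median -0.02). Without untreated replicate 3 these were 6 (median 0.06). Of 6 leukocyte and 3 endothelial markers, 8 were at 0 throughout and ITGAM had 1 count in each of 2 treated libraries, so their summed level was 0 in untreated and at most 0.287 CPM in treated cells. CD68 shares 81.6% of its exonic bases with another gene on its strand. Reads over several genes were not counted, so its 0 does not show absence. Of 4 fibroblast markers 3 were at 0, and COL1A1, at 24.4 to 63.0 CPM, was the other. Within the renal list, treated cells had less PAX8 (83.8 against 145 CPM, edgeR adjusted p 0.0316) and more VIM (7279 against 4594 CPM, 0.0273). These calls were lost on leaving out single libraries, 5 of 6 for PAX8 (edgeR adjusted p 0.0657 to 0.153) and 4 for VIM (0.0561 to 0.126), and their part in the results below was not tested. Untreated replicate 3 stood apart from the other untreated libraries (chi-square per degree of freedom 28.1 and 24.7 against replicates 1 and 2, which differed by 3.75). By the same measure the pairs of treated libraries lay in between, at 11.4, 17.3 and 14.4. Untreated replicate 3 also had the largest mitochondrial share of counts, 6.13% against 4.59% to 5.61% in the others. Values without it are given beside calls, counts and medians that it changed by more than 1.5 times or turned in sign.

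In the Jun family the treated cells differed mainly in JUNB. JUNB (ENSG00000171223, GRCh38 chromosome 19, 12791486 to 12793315, plus strand, 1 exon) encodes a Jun protein that activates less strongly than JUN on many promoters and can oppose it. Its counts were 217, 331 and 296 in untreated replicates 1, 2 and 3 and 1236, 1550 and 1652 in treated replicates 1, 2 and 3, or 56.5, 85.2 and 67.1 CPM against 355, 348 and 469 CPM. Every treated library was over every untreated one by a wide margin. JUNB rose 5.61-fold from 69.6 ± 14.5 to 391 ± 67.8 CPM (SD, n = 3 per group). Its fitted log2 fold change was 2.49 (SE 0.22; edgeR adjusted p 0.000151). Over 13 alternative fits the log2 fold change lay between 2.34 and 2.66. Exons of HOOK2 on the opposite strand cover 14.2% of the JUNB exon; counting was strand-specific, and HOOK2 itself had 42 to 76 counts.

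JUN (chromosome 1, 58776845 to 58784048, minus strand), the founding member and main transactivator of the family, had 87.5, 64.3 and 85.7 CPM in untreated and 112, 116 and 93.1 CPM in treated replicates 1, 2 and 3. The groups did not overlap, yet the lowest treated and the highest untreated library were close. The log2 fold change of 0.44 (95% interval -0.002 to 0.87) was not past the threshold (edgeR adjusted p 0.255). JUND (chromosome 19, 18279694 to 18281622, minus strand), a Jun protein usually made at a steady level in resting cells, had 180, 162 and 192 CPM without and 250, 180 and 274 CPM with the cytokines. Treated replicate 2 lay within the untreated range, and the log2 fold change was 0.40 (interval -0.05 to 0.84; edgeR adjusted p 0.317). For both genes the upper end of the interval is below the lower end of that of JUNB, 1.99.

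Of the Fos family, FOS was nearly absent and FOSL1 and FOSL2 supplied the reads. FOS (chromosome 14, 75278826 to 75282230, plus strand), the prototype immediate early gene, had 1 count in untreated replicate 2 and 0 in the other 5 libraries, and no fold change is given. FOSL1 (chromosome 11, 65892049 to 65900573, minus strand), which encodes FRA-1, a Fos protein often raised in invasive tumour cells, had 177, 137 and 61.6 CPM in untreated and 292, 200 and 229 CPM in treated replicates 1, 2 and 3. Each treated library was above each untreated one, but untreated replicate 3 was far below its fellows. FOSL1 averaged 125 ± 58.6 CPM without and 241 ± 47.1 CPM with treatment (SD, n = 3 per group). The fitted log2 difference, 0.94 (SE 0.34, interval 0.16 to 1.72), missed the threshold (edgeR adjusted p 0.159). Without untreated replicate 3 it was 0.61 (edgeR adjusted p 0.0953), and without untreated replicate 1 it was 1.30 and past the threshold (0.0483). With no low-count filter beyond 1 count it was past it as well (edgeR adjusted p 0.00106), at a nearly unchanged log2 fold change of 0.96.

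FOSL2 (chromosome 2, 28392448 to 28417317, plus strand), which encodes FRA-2, had 129, 117 and 133 CPM without and 151, 143 and 120 CPM with the cytokines. The groups overlapped. Its log2 fold change of 0.13 had an interval of -0.26 to 0.51 (edgeR adjusted p 0.794).

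ATF3 had the largest fold change of the 8 tested genes. ATF3 (ENSG00000162772, chromosome 1, 212565334 to 212620777, plus strand) encodes a stress-induced bZIP protein that represses transcription as a homodimer and restrains inflammatory genes in macrophages. Its counts were 63, 44 and 31 in untreated and 451, 516 and 440 in treated replicates 1, 2 and 3, which is 16.4, 11.3 and 7.03 CPM against 130, 116 and 125 CPM. The treated libraries were close together and far above the untreated ones, which were spread more widely. ATF3 rose 10.7-fold, from a mean of 11.6 ± 4.70 CPM to one of 124 ± 6.96 CPM (SD, n = 3 per group). On the log2 scale the fit gave 3.42 (SE 0.29; edgeR adjusted p 0.000123). Without untreated replicate 3, the lowest library, the value was 3.14 (edgeR adjusted p 3.68e-06), and it lay between 3.14 and 3.78 in all 13 alternative fits. By log2 fold change ATF3 ranked 131 and JUNB 203 among the 10067 genes tested.

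The remaining immediate early genes did not pass the threshold. EGR1 (chromosome 5, 138465479 to 138469303, plus strand), a zinc finger factor switched on through serum response factor, had 2, 1 and 1 counts without and 3, 3 and 0 with the cytokines. A difference in EGR1 was not detectable at this depth. IER2 (chromosome 19, 13150411 to 13154911, plus strand), which encodes a small nuclear protein, had 67.5, 76.7 and 39.0 CPM in untreated and 127, 104 and 116 CPM in treated replicates 1, 2 and 3. Treated levels of IER2 were above untreated ones in every library, with a log2 fold change of 0.92 (SE 0.26, interval 0.35 to 1.50) and an edgeR adjusted p of 0.0619. IER2 passed the threshold in DESeq2 (adjusted p 0.0164), with no low-count filter beyond 1 count (edgeR, 0.00227) and without untreated replicate 3 (edgeR, 0.0389), where its log2 fold change was smaller at 0.68. Exons of 2 unnamed genes on the opposite strand cover 52.2% of its exonic bases, and both had 0 counts.

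IER3 (chromosome 6, 30743199 to 30744548, minus strand), an NF-kappaB-responsive gene also called IEX-1 that affects survival after TNF, was already abundant in untreated cells. It had 191, 205 and 112 CPM there and 268, 206 and 191 CPM in treated replicates 1, 2 and 3. The groups overlapped, and the log2 fold change of 0.39 (interval -0.18 to 0.96) had an edgeR adjusted p of 0.476. Without untreated replicate 3 it was 0.16 (edgeR adjusted p 0.658). Exons of HCG20 and IER3-AS1, antisense to it, cover 38.9% of its bases, and neither had more than 2 counts in a library. No member shares exonic bases with another gene on its own strand.

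These changes altered the make-up of the Jun family more than that of the Fos family. Levels of different genes were set side by side as CPM per kilobase of exonic length. On that scale JUNB made up 20.8%, 31.4% and 22.9% of the Jun total in untreated and 54.8%, 60.3% and 60.5% in treated replicates 1, 2 and 3. JUND went from 60.6% ± 3.46 to 33.2% ± 3.46 and JUN from 14.3% ± 2.18 to 8.31% ± 2.07 (SD, n = 3 each), with neither gene called lower. In the Fos family FOSL1 held 63.8% to 83.9% of the untreated and 84.2% to 88.0% of the treated total, the lowest value being that of untreated replicate 3. These shares depend on the length scaling, with 7162 exonic bases in FOSL2 and 1887 in FOSL1. Of the Fos CPM without that scaling, FOSL1 held 57.8%, 53.8% and 31.7% in untreated replicates 1, 2 and 3. In treated libraries it held 58.4% to 65.9%, and FOSL2 nearly all the rest in both groups. JUNB went from 21.4% ± 5.24 to 53.2% ± 3.36 of the Jun CPM (SD, n = 3 each). On the per-kilobase scale FOS contributed at most 0.0906% in any library. Summed CPM of the 3 Jun genes was 327 ± 16.8 in untreated and 732 ± 96.5 in treated cells, and of the 3 Fos genes 252 ± 56.0 and 379 ± 56.4 (SD, n = 3 each). These shares and sums describe genes already shown above and carry no test.

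**Figure D2:**
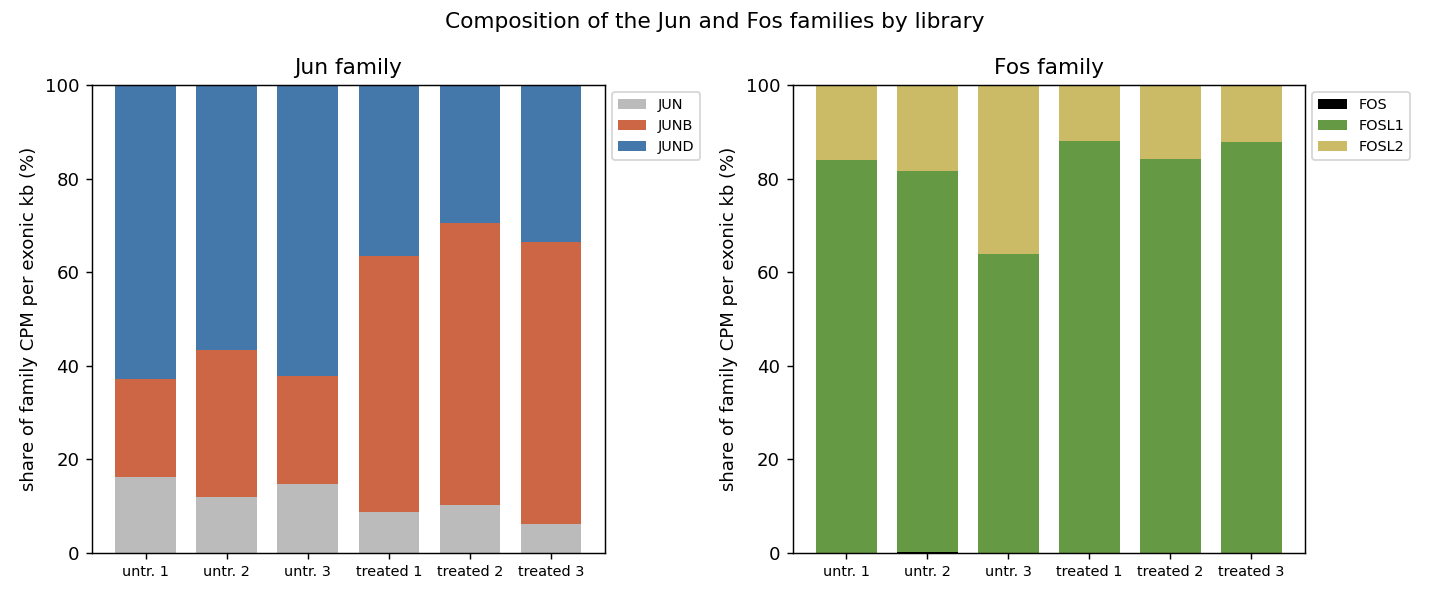
Share of each gene in the summed CPM per exonic kilobase (vertical axis, %) of the Jun family (left) and the Fos family (right) in each of the 6 libraries. JUNB (orange) holds at most 31.4% of the Jun total in untreated and at least 54.8% in treated libraries, and FOS is barely visible at this scale.

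Ordered by CPM per exonic kilobase, untreated cells had most IER3 (125 ± 37.1), followed by JUND (92.2 ± 7.86), FOSL1 (66.4 ± 31.0) and JUNB (38.0 ± 7.91; SD, n = 3 each). Each of these overlapped its neighbour in the order. JUN (21.9 ± 3.56), IER2 (19.8 ± 6.38) and FOSL2 (17.7 ± 1.12) formed an overlapping group below JUNB, and ATF3 (2.87 ± 1.16) lay under all of them. In treated cells JUNB came first with 214 ± 37.0, overlapping IER3 (164 ± 30.6), which in turn overlapped FOSL1 (128 ± 25.0) and this JUND (122 ± 25.1). On this scale ATF3, at 30.6 ± 1.72 CPM per kilobase, had reached the range of JUN (29.5 ± 3.37). It lay above FOSL2 (19.3 ± 2.27). The order depends on the length scaling. By mean CPM without it, untreated cells had JUND (178) above IER3 (169), and FOSL2 (126) level with FOSL1 (125) and above JUNB (69.6). With the cytokines JUNB (391) stayed first, while FOSL2 (138) was above ATF3 (124) and ATF3 above JUN (107). Untreated libraries of JUND and IER3, and treated ones of FOSL2 and ATF3, overlapped in CPM. EGR1 and FOS were last in both groups.

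For most of the 8 tested genes, replicates varied by clearly more than counting alone would give. In untreated cells the coefficient of variation of FOSL1 was 46.8% where its counts allow 4.50%, that of ATF3 40.6% against 14.7%, of IER2 32.2% against 6.42% and of IER3 29.6% against 3.85%. These 4 genes were all lowest in untreated replicate 3, by 0.55 to 0.89 on the log2 scale from their group mean. In that library JUN, JUNB, JUND and FOSL2 deviated by 0.13 or less in either direction. JUND and FOSL2 were the steadiest genes of the untreated cultures, at 8.52% against 3.72% and 6.34% against 4.42%. In treated cells the coefficient of variation ran from 5.64% for ATF3, where counting gives 4.62%, to 20.6% for JUND over the 8 genes. It was lower than in untreated cells for 6 of them and higher for JUND and FOSL2 (11.8%). The part of library quality in the low values of untreated replicate 3 was not tested.

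**Figure D3:**
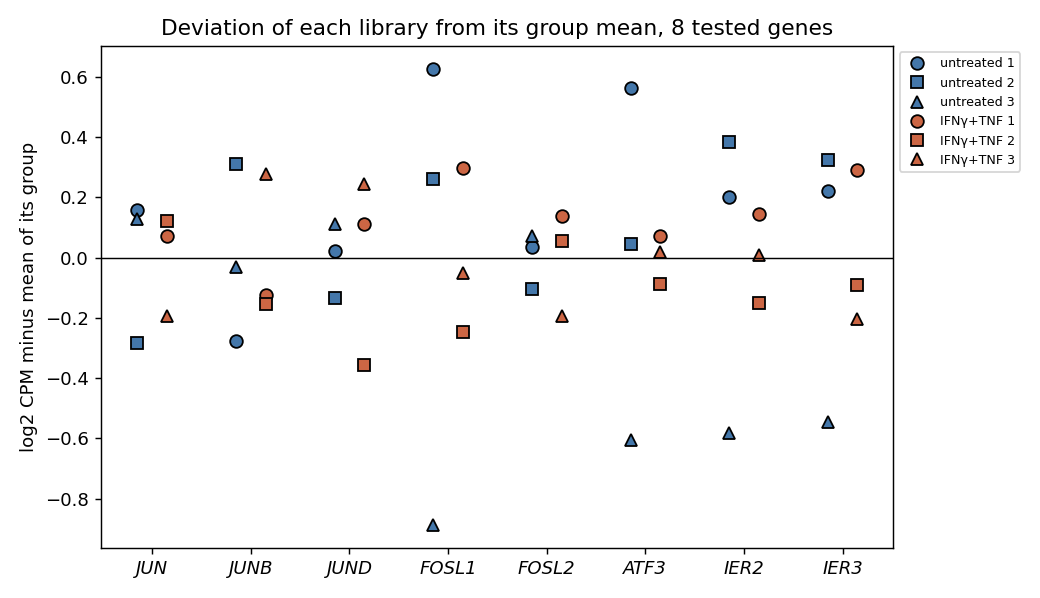
Deviation of each library from the mean of its group (vertical axis, log2 CPM) for the 8 tested genes, with untreated libraries in blue and treated ones in orange. Untreated replicate 3 (blue triangles) is more than 0.5 below the mean for 4 genes, FOSL1, ATF3, IER2 and IER3, and within 0.13 of it for the other 4.

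Genes around AP-1 were examined through lists of dimer partners, further immediate early genes, the MAP kinase pathway and known targets. Among all genes tested 5.58% were called higher and 2.55% lower, the background for the shares below. Without untreated replicate 3 this background was 7.16% and 4.35%. Of 18 other AP-1 bZIP genes 15 were tested, with 4 called higher and 1 lower (26.7% and 6.67%) and a median log2 fold change of 0.12. That median was 0.41 without untreated replicate 3, 0.40 without treated replicate 1, 0.22 without treated replicate 2 and 0.03 with library totals as the only scaling. BATF2, a BATF relative that can pair with Jun proteins, had counts of 2, 1 and 0 without and of 643, 685 and 933 with the cytokines. It was at least 270-fold higher, at 201 ± 57.3 CPM (SD, n = 3), with an edgeR adjusted p of 6.43e-06. It entered the test through its treated libraries alone. BATF3, a partner of Jun proteins in dendritic cells, rose 7.89-fold, reaching 66.1 ± 12.9 CPM from 8.40 ± 2.97 CPM (SD, n = 3 each; edgeR adjusted p 0.000398). MAFF, a small Maf protein without a transactivation domain, rose 7.07-fold to 39.1 ± 10.7 CPM. CREM, a cAMP-responsive bZIP gene, rose 2.52-fold but was not past the threshold without untreated replicate 2 (edgeR adjusted p 0.0741) or without treated replicate 3 (0.063). CREB5 fell 2.56-fold, from 38.8 ± 3.86 to 15.1 ± 2.02 CPM (SD, n = 3 each; edgeR adjusted p 0.00443). ATF4, the most abundant partner, had 208 ± 13.2 and 221 ± 31.7 CPM. BATF had 0 counts throughout, and FOSB had counts of 8, 1 and 1 without and of 2, 0 and 1 with the cytokines.

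Of 34 other immediate early genes 28 were tested and 7 were called higher (25%, background 5.58%), with a median log2 fold change of 0.42. None was called lower by edgeR, with 4 lower at an unadjusted p under 0.05, 1 lower in DESeq2 and 0 in limma voom, and without untreated replicate 3 the counts were 10 higher and 4 lower. ZFP36 and ZFP36L2 encode proteins that bind AU-rich elements and promote decay of cytokine RNA. ZFP36L2 went from 4.95, 6.43 and 5.44 CPM to 29.9, 33.5 and 32.9 CPM in replicates 1, 2 and 3, a 5.70-fold rise (edgeR adjusted p 0.000206), and ZFP36 rose 3.70-fold. KLF4, a zinc finger factor, had at most 1 count per untreated library and 24, 38 and 43 in treated ones, at least 12.4-fold higher, and passed the filter only through them. PHLDA1, KLF10 and CSRNP1 rose 3.63-, 2.86- and 2.69-fold. The CSRNP1 call was lost on leaving out treated replicate 3 (0.0565, edgeR adjusted p) or untreated replicate 2 (0.0735). TRIB1 rose 2.28-fold and was not past it without any 1 library other than untreated replicate 3 (edgeR adjusted p 0.0701 to 0.162), nor with library totals as the only scaling (0.0923). The matricellular genes CCN1 and THBS1 were the most abundant of the list, with 1025 ± 199 and 811 ± 122 CPM in untreated and 780 ± 270 and 603 ± 322 CPM in treated cells, where treated replicate 3 was lowest for both. EGR2, EGR3, NR4A1, NR4A3 and PTGS2 were, like FOS and EGR1, at 3 counts or fewer in every library.

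None of 18 tested genes of the MAP kinase cascade (20 listed) was called in either direction by edgeR, DESeq2 or limma voom, although 2 were higher and 1 lower at an unadjusted p under 0.05 in edgeR. The median log2 fold change was -0.03, as over all genes. Without untreated replicate 3 it was 0.11 and that of all genes 0.03, both turned in sign. Over the 13 alternatives the median of the list ran from -0.14, with library totals as the only scaling, to 0.11. MAP2K2 and MAP2K3, the most abundant of these kinase genes, had log2 fold changes of 0.07 and 0.38 with intervals of -0.37 to 0.51 and -0.25 to 1.00. Among 13 feedback inhibitors 11 were tested and 1 was called higher (9.09%, background 5.58%). This was DUSP5, a nuclear phosphatase of ERK, with 10.7, 10.6 and 5.89 CPM in untreated and 42.0, 34.8 and 84.3 CPM in treated replicates 1, 2 and 3 (5.94-fold, edgeR adjusted p 0.00391). None was lower in edgeR, with 1 at an unadjusted p under 0.05 and 0 in DESeq2 and limma voom, and without untreated replicate 3 the counts were 2 higher and 1 lower. DUSP1, the most abundant inhibitor, which inactivates p38 and JNK, had 399 ± 124 and 381 ± 25.6 CPM, and DUSP14 114 ± 38.8 and 87.0 ± 7.08 CPM (SD, n = 3 each).

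Of 25 genes known as AP-1 targets 18 were tested, 3 called higher and 1 lower (16.7% and 5.56%, background 5.58% and 2.55%), with a median log2 fold change of 0.26. The median was 0.47 without untreated replicate 3, 0.45 and 0.49 without treated replicate 1 or 2, and 0.13 with library totals as the only scaling. CCL2, the monocyte chemokine, rose 269-fold and IL6 4.22-fold, from 20.4 ± 6.65 to 85.6 ± 3.16 CPM. PLAUR, the urokinase receptor, went from 82.9, 66.1 and 28.1 CPM to 208, 168 and 230 CPM in replicates 1, 2 and 3 (3.43-fold, edgeR adjusted p 0.0144). Leaving out treated replicate 3 (0.0665) or untreated replicate 2 (0.0547; both edgeR adjusted p) ended the call. HBEGF, a ligand of the EGF receptor, fell 3.00-fold, from 62.4 ± 18.6 to 20.7 ± 5.61 CPM, and missed the threshold without treated replicate 2, treated replicate 3 or untreated replicate 2 (edgeR adjusted p 0.0554 to 0.0586). Without untreated replicate 3 the list had 5 genes higher and 2 lower. TIMP1, an inhibitor of matrix metalloproteinases and an abundant target, had 667 ± 26.7 and 795 ± 105 CPM. The metalloproteinase genes MMP10 and MMP13, which AP-1 drives in other cells, were at 3 counts or fewer in every library. CCL2 and IL6 are also known targets of NF-kappaB. Of 10 heat shock genes, all tested, none was called in either direction by edgeR, DESeq2 or limma voom, and 0 had an unadjusted edgeR p under 0.05. HSPB1 and HSPA8, the most abundant, had log2 fold changes of -0.02 and 0.18.

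**Figure D4:**
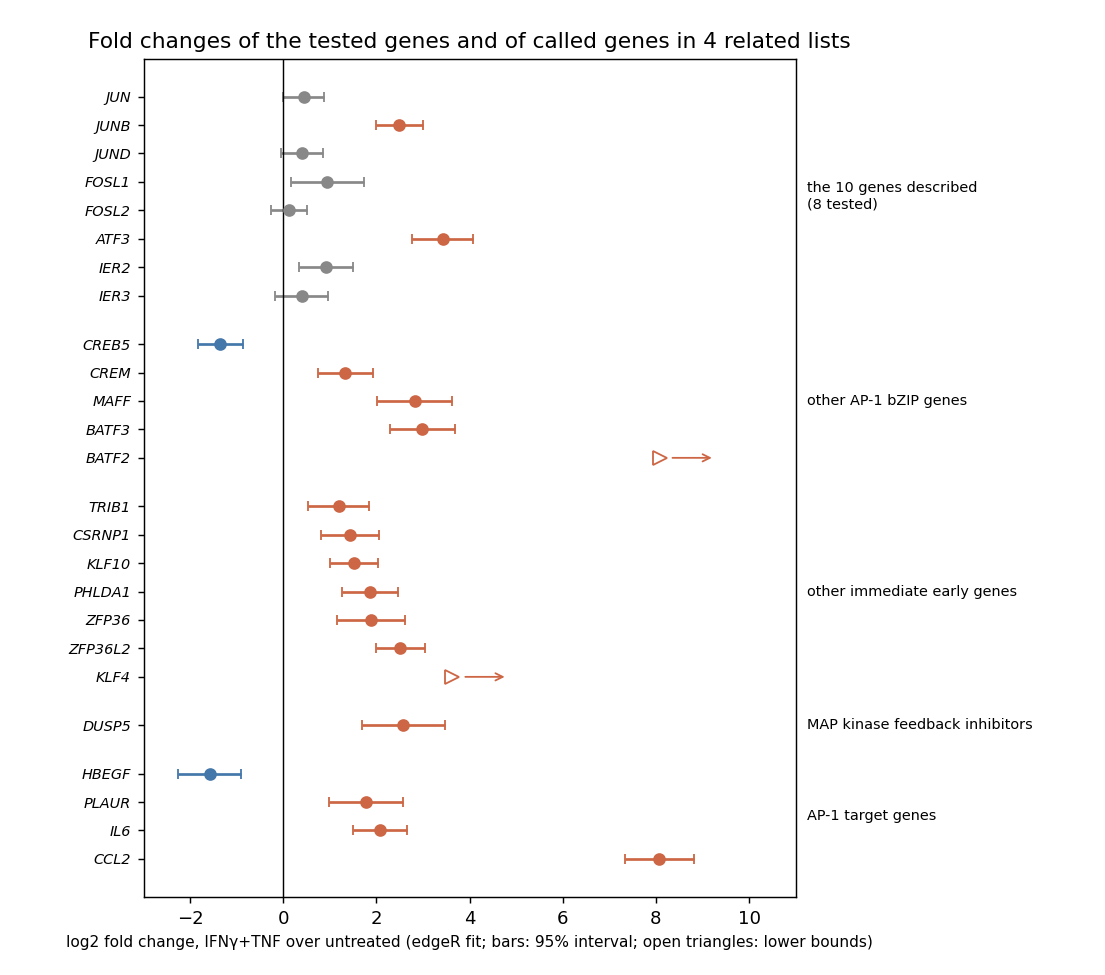
Log2 fold change (horizontal axis, treated over untreated) of the 8 tested genes, and of the genes called in 4 related lists, with 95% intervals from the edgeR fit. Orange marks genes called higher, blue lower and grey not called, and open triangles with arrows are the lower bounds of BATF2 and KLF4; only JUNB and ATF3 of the 8 are orange.

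By Euclidean distance of centred log2 CPM over the 6 libraries, the genes most like ATF3, the member with the smallest adjusted p, were TRAFD1 (distance 0.648), SOCS3 (0.658) and ENSG00000287263 (0.662). TRAFD1, a regulator of Toll-like receptor signalling, went from 39.5 ± 6.10 to 383 ± 34.7 CPM and SOCS3, the feedback inhibitor of cytokine receptors, from 9.11 ± 2.69 to 135 ± 28.6 CPM (SD, n = 3 each). ENSG00000287263 had 3 counts or fewer in each untreated library and entered the test through its treated libraries alone. With 3 libraries in each of 2 groups, such likeness reflects mainly the step between groups.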

How the data were processed

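The authors deposited 1 file of gene-level read counts per library. Per the file headers, the authors counted with featureCounts 2.0.1 in long-read mode, strand-specifically, over exons of Ensembl release 105 on GRCh38, without options for multi-mapping reads or reads over several genes. The submitters' processing notes list minimap2 2.24, SAMtools 1.16 and featureCounts 2.0.0. Reads had a quality above 7, and 500 ng of poly(A) RNA per library was sequenced for 72 h.

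A name table gave symbols for 61369 of 61541 identifiers, and GENCODE 29 for 159 more. All 6 libraries were fitted with edgeR 4.0.16 in R 4.3.3: quasi-likelihood test, TMM, filterByExpr, group as the only term, and Benjamini-Hochberg adjustment over 10067 genes at 0.05. Genes were tested on the whole table. CPM use TMM-normalised library sizes. SEs were derived from the F statistic, and 95% intervals from these SEs with the fit's total degrees of freedom. Bounds use 3 counts per library and cover counting error only. Distances and deviations use log2 CPM with a prior count of 2.

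Alternatives were DESeq2 size factors, library totals, 2 other filters, DESeq2 1.42.0, limma 3.58.1 voom, a replicate block and each library left out. Fits were tested on simulated data. The edgeR fit recovered 25 of 100 simulated 2-fold changes and 77 of 100 4-fold changes, with 8 false calls. A gene that was not called may therefore still differ 2-fold, unless its fitted interval leaves that out. The intervals of FOSL1 and IER2 reached past a 2-fold rise (upper ends 1.72 and 1.50 on the log2 scale). Those of JUN, JUND, FOSL2 and IER3 ended below it (0.87, 0.84, 0.51 and 0.96). The genes and lists were chosen with earlier results of these data known. All 10 genes are named, with, from each list, up to 8 called genes and the 2 of highest mean CPM; other names were chosen after their values were seen. P-values measure the spread between the cultures labelled biological replicates. RefSeq gave the promoters of 8 of the 10 genes. A further gene of the marker lists is not reported here.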

Additional observations from a re-analysis of the deposited data

How the results depend on the processing

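All 104 recomputed log2 fold changes of the 8 tested genes (13 alternatives each) kept their direction. JUNB and ATF3 were past the threshold in every one of the 13, FOSL1 in 3 and IER2 in 4, and JUN, JUND, FOSL2 and IER3 in none. With no filter beyond 1 count all 10 genes were tested and 4 were called higher, in place of 2. Of the 19158 genes tested in that fit, 4.43% were called higher. The number of the 8 genes called higher was 4 with the replicate number as a block, and from 2 to 3 without any 1 library. None was called lower in any fit. With no filter beyond 1 count, the log2 fold changes of FOSL1 (0.96) and IER2 (0.95) hardly moved while their p-values fell. Adjusted p (edgeR) also fell for ATF3, to 1.05e-32, and JUNB, to 1.02e-22, but rose for JUN (0.364) and JUND (0.392). The reason was not tested, and passing in that fit does not show a larger change. Over all genes, 819 of 10067 were changed, 1328 of 19158 with no filter beyond 1 count and 1512 of 10067 with the replicate block. With 1 library left out the number ran from 455 (without treated replicate 3) to 1178 (without untreated replicate 3). It was 465 without untreated replicate 2. Scaling to library totals alone moved the median over all genes from -0.03 to -0.13 (log2), with 489 genes higher and 363 lower in place of 562 and 257; the list of other immediate early genes then had 6 higher and 1 lower.

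Whether replicate numbers pair the libraries was left unsettled by the deviations. Deviations of same-numbered libraries correlated at 0.651, -0.0037 and 0.374 across genes, and not every library was most like the one with its own number. With the replicate block the edgeR adjusted p was 0.00078 for FOSL1 and 0.00136 for IER2. Other immediate early genes then had 11 higher and 5 lower, and AP-1 targets 7 and 3. Feedback inhibitors had 2 and 1, and the MAP kinase cascade 0 and 1. Of all genes tested, 9.01% were higher and 6.01% lower in that fit. The 3 libraries per group and 3 counts as the limit leave FOS and EGR1 without a measurable change. For other changes the cause was not tested.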
